A study of Arabidopsis thaliana with 17 samples.

Results

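Seed coat cells and root non-hair cells of Arabidopsis thaliana were captured through the same promoter, that of GL2, and their accessible DNA was compared. The comparison rests on 9 of the 17 samples of the series, held in 7 of the 11 deposited peak lists that carry the mark 6.8M. All 7 lists come from plants of the Col-0 background with the transgenes GL2:NTF and ACT2:birA. In such an INTACT line the promoter of GL2 drives NTF, a tag for the nuclear envelope, and that of ACT2 drives the ligase birA, which puts biotin on the tag so that nuclei can be caught. Their DNA was then cut with DNase I, and small fragments with a cut at each end were sequenced. Seed coat nuclei came from whole siliques, at 4 or 7 days past anthesis (DPA), of soil-grown plants, and non-hair nuclei from plate-grown roots. The 3 seed coat lists are 4 DPA replicate 1, a pool of 4 DPA replicates 3 and 4, and a pool of 7 DPA replicates 1 and 2. The 4 non-hair lists are single libraries from seedlings of 7 days (replicate 2) or 10 days (replicates 1, 3 and 4). Organ, growth on soil or on plates and plant age all differ between the groups and cannot be told apart from the cell type. Hair cells (2 lists, captured through the ADF8 promoter) and whole roots (2 lists, through the UBQ10 promoter) come from lines that carry ACT2:birA as well. They are used where a site's place in other root lists is given, and whole roots include non-hair cells.

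GL2 is a homeodomain factor of class IV (HD-ZIP IV). In the root epidermis it holds back hair formation in non-hair cells. In the seed coat it is needed for the mucilage of the outer cell layer, and it is also known from trichomes and from the embryo. In these cells GL2 is switched on by a complex of a MYB factor, a bHLH factor and the WD40 protein TTG1, while single-repeat MYB proteins such as CPC, TRY and ETC1 compete with the MYB factor. The seed coat of these stages is a young tissue derived from the integuments of the ovule, whose outer cells are about to make mucilage and whose innermost layer makes proanthocyanidin, the brown tannin of the seed.

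A site is a stretch of merged, touching or overlapping peaks of the 7 lists, and a list holds a site if a peak of it overlaps the site. Each list was ranked by its own deposited peak score, and a site takes the percentile of its best peak, 100 being the top of the list. A percentile orders sites within a list, and differences between lists show a difference in order and not a change in accessibility. Sites held by all 3 seed coat lists and by none of the 4 non-hair lists are called seed coat-only, those held by all 4 non-hair lists and by no seed coat list non-hair-only, and both kinds together separating sites. The gene given for a site is the protein-coding one whose transcription start site (TSS) is nearest, which need not be the gene it acts on.

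The central 150 bp of 9 sites are printed 5′ to 3′ on the plus strand of TAIR10, because the results turn on their genes and on the motifs they hold. The first is the upstream site of GL2, held by all 7 lists, with the W-box (TTGACC or TTGACT on either strand, the site of WRKY factors) in capitals.
GL2 (chr1:30036581-30036730): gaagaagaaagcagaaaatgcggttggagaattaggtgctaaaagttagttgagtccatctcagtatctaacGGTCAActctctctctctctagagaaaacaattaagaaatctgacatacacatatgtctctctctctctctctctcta
The next 4 are seed coat-only. Capitals mark the CArG box of MADS factors in the first pair, the AC element (ACCTACC or ACCAACC, a site of MYB factors) in the site of TT7, and the L1 box (TAAATGCA or TAAATGTA, a site of HD-ZIP IV factors such as GL2) in that of ABCG11.
BRC1 (chr3:6380801-6380950): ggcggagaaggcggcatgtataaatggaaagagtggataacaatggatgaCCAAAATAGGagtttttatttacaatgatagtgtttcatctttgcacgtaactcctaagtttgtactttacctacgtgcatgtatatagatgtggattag
SOC1 (chr2:18811701-18811850): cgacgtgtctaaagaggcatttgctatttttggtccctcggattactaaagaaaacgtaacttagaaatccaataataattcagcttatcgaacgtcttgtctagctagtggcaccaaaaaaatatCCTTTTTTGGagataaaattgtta
TT7 (chr5:2558151-2558300): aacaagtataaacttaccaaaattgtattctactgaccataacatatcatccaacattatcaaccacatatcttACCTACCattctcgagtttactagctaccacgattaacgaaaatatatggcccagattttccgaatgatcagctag
ABCG11 (chr1:6142291-6142440): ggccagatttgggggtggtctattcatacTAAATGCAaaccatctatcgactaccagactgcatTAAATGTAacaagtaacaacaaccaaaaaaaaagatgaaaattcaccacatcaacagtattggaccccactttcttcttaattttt
The last 4 are non-hair-only, with the W-box in capitals.
PHT1;1 (chr5:17402801-17402950): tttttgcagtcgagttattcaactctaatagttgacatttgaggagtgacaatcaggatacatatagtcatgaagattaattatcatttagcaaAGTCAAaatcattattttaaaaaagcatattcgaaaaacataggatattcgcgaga
NRT1.1 (chr1:4102591-4102740): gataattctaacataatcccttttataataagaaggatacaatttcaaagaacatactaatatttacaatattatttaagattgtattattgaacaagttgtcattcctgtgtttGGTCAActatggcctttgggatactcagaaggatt
WRKY31 (chr4:11698501-11698650): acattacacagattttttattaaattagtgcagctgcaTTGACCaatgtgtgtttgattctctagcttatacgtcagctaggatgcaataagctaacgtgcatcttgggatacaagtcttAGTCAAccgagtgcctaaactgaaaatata
JAZ1 (chr1:6621261-6621410): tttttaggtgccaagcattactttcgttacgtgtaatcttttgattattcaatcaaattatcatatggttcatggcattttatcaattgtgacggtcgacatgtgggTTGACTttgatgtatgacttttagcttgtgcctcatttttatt
A match to a motif describes these letters and does not show that a factor binds them.

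The deposited lists held 30110, 28362 and 27036 peaks for the seed coat (4 DPA replicate 1, 4 DPA pool, 7 DPA pool) and 26380, 25953, 26947 and 29089 in the order of the non-hair replicates, whose mean was 27092 ± 1392 (SD, n = 4). The pooled lists are the authors' and have no replicate of their own. The files give no read counts, so no counting error can be attached to a single peak. Where nothing in the labels says that samples of a group come from separate plants, p-values measure the spread between lists, which may be technical. No list was left out as standing apart, but non-hair replicate 4 overlapped the seed coat lists most, with a mean Jaccard index (base pairs shared over base pairs in either list) of 0.312 against 0.263, 0.286 and 0.284 for replicates 1 to 3.

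The seed coat lists resembled each other, the non-hair lists resembled each other, and the overlap across the groups was lower. The index was between 0.427 and 0.525 among the seed coat lists, between 0.386 and 0.477 among the non-hair lists, and between 0.259 and 0.331 across the groups. The lowest value within a group thus lay above the highest value across. The mean within groups was 0.448 and that between groups 0.286, a difference of 0.161 that no other of the 35 labellings of the lists reached (one-sided exact permutation test, p = 0.0286, which is the smallest it can give). The overlap of the seed coat with the hair lists, captured through another promoter, was between 0.257 and 0.270, and with the whole root lists between 0.236 and 0.274. Averaged over the seed coat lists, the 4 non-hair lists had a mean index of 0.286 and the 2 hair lists one of 0.264, a difference of 0.0223 (exact permutation, two-sided, p = 0.4). With these lists the test cannot give a p under 0.133, so it does not bear on whether the shared promoter adds resemblance.

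**Figure D1:**
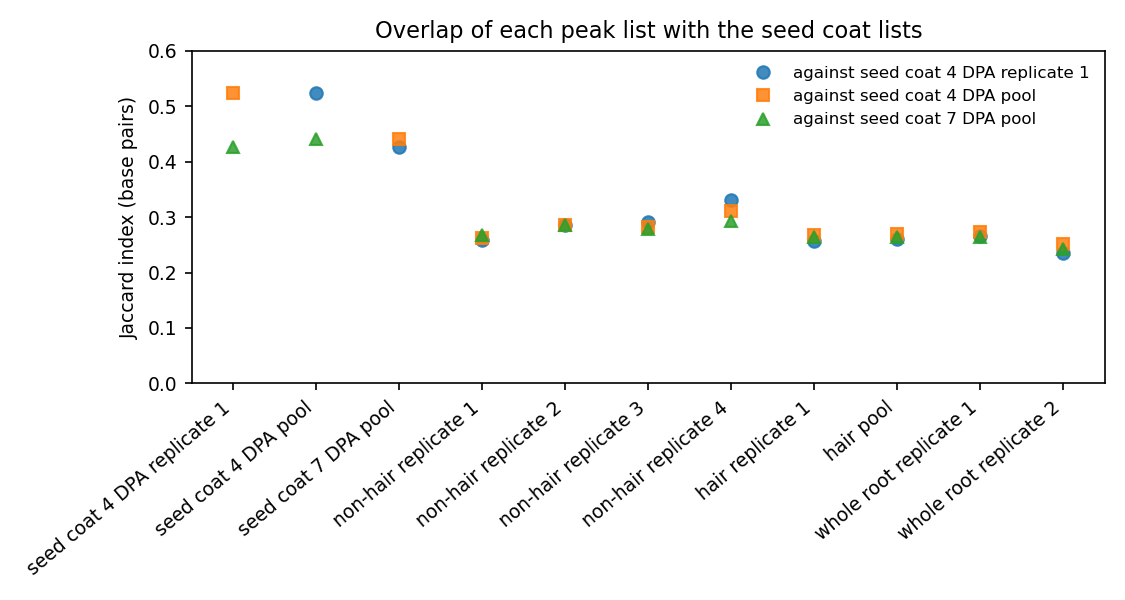
Jaccard index in base pairs (vertical axis) of each of the 11 peak lists (horizontal axis) with each of the 3 seed coat lists (symbols). Seed coat lists overlap each other at 0.427 to 0.525, non-hair lists lie between 0.259 and 0.331, and hair and whole root lists lie at 0.236 to 0.274.

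The 7 lists merged into 47351 sites, and all 7 held 12440 of them. There were 3798 seed coat-only sites (8.02% of all sites) and 3956 non-hair-only sites (8.35%). Sites in every list of a group and none of the other were thus more numerous than sites split in most other ways, as 614 sites were held by exactly 2 lists of each group and 2245 by all seed coat lists and 3 non-hair lists. Sites shared with a single non-hair list were mostly those of replicate 4: 766 sites were held by the 3 seed coat lists and by replicate 4 alone among the non-hair lists, against 363, 105 and 163 for replicates 1 to 3. Fisher's exact test at each site (two-sided, Benjamini-Hochberg over all sites) called 0 sites, or 0%, at an adjusted p of 0.05. The 7754 separating sites had the unadjusted p of 0.0286 that is the smallest 3 lists against 4 can give, and an adjusted p of 0.174. The counts below are therefore descriptions of these lists.

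**Figure D2:**
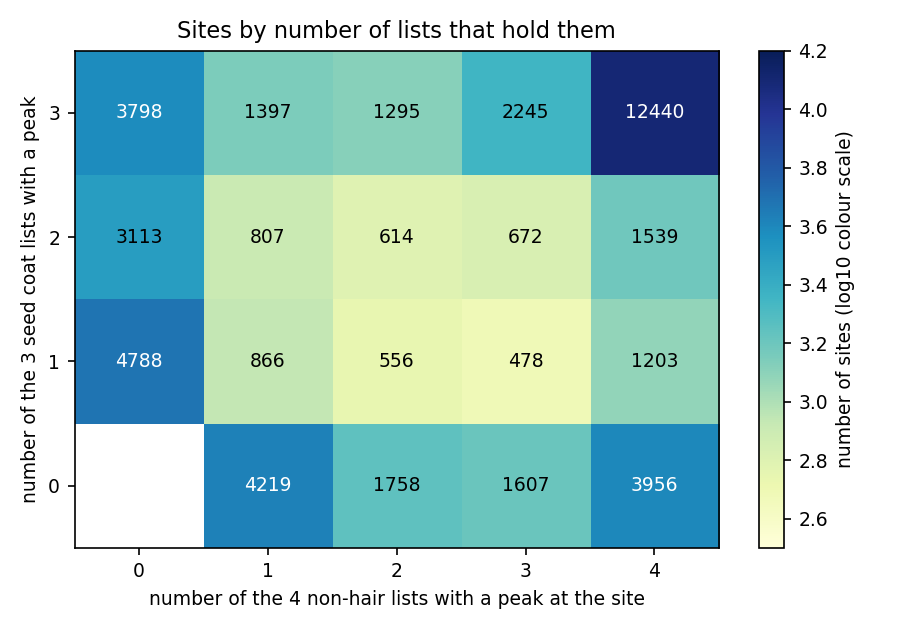
Number of sites (in each cell, and as a log10 colour scale) held by 0 to 3 seed coat lists (vertical axis) and 0 to 4 non-hair lists (horizontal axis). The corners are the fullest cells beside sites of a single list, with 12440 sites in all 7 lists, 3798 seed coat-only and 3956 non-hair-only.

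The 7 DPA pool decided much of the seed coat-only count. Without it there were 5978 seed coat-only sites, and 2138 sites were held by both 4 DPA lists, by no non-hair list and not by the 7 DPA pool. That pool alone held 2037 sites that no other list of the comparison had, against 1671 for 4 DPA replicate 1 and 1080 for the 4 DPA pool. A full-depth list of 7 DPA replicate 1, one of the libraries in the pool, held 1683 of the 3798 seed coat-only sites (44.3%) and 25 of the 3956 non-hair-only sites (0.632%). It held 66.6% of the sites in all 7 lists and 28.6% of all sites. As peaks of the pool define both kinds of separating site, this contrast was set in advance and is no support for the calls.

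Separating sites lay farther from genes than common ones. The median distance from the centre of the site to the nearest TSS was 868 bp for seed coat-only and 857 bp for non-hair-only sites, and 173 bp for the sites of all 7 lists. Intergenic sites made up 51.3% of the seed coat-only, 52.0% of the non-hair-only and 31.4% of the common sites, and sites within 400 bp upstream of a TSS 21.7%, 24.0% and 44.1%. Over whole lists the groups overlapped in this respect, as 31.8%, 33.9% and 33.3% of seed coat peaks and 32.7%, 34.3%, 33.3% and 34.0% of non-hair peaks lay within 400 bp upstream of a TSS. The difference of -0.626 percentage points, seed coat minus non-hair, was within the spread between lists (exact permutation, two-sided, p = 0.457, adjusted p = 0.718 over 8 measures of position and GC content), and none of the 8 measures separated the groups.

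The separating sites were not alike in the hair and whole root lists. Of the non-hair-only sites, 92.1% were held by hair replicate 1 and 92.9% by the hair pool, about the shares of the sites common to all 7 lists (93.1% and 94.2%). Only 131 non-hair-only sites (3.31%) were in no hair list, and 69 (1.74%) in no hair and no whole root list. The non-hair-only sites are thus, with few exceptions, sites of the root that the hair cells hold too. Of the seed coat-only sites, 3.48% and 3.58% were in the hair lists, and 12.3% and 14.9% in whole root replicates 1 and 2. Those 829 seed coat-only sites (21.8%) that some hair or whole root list held ranked low there, at a median percentile of 15.0 and 16.3 in the hair lists and of 17.4 and 19.0 in the whole root lists.

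The GL2 gene itself was among the top sites of every GL2-line list. Its upstream site, printed above, had a TSS distance of 300 bp (AT1G79840, chromosome 1, 30036541 to 30036770) and percentiles of 99.7, 99.9 and 99.6 in the seed coat lists and 99.9, 99.9, 99.9 and 99.8 in the non-hair lists. In the hair lists the same site stood at 69.0 and 73.4, and in the whole root lists at 80.7 and 62.4. A second site (chromosome 1, 30035761 to 30036030, intergenic) had 99.8, 99.9 and 99.3 in the seed coat and 96.5, 97.2, 94.4 and 99.4 in the non-hair lists, but 44.5 and 29.7 in the hair lists. Both sites were thus higher in all 7 GL2-line lists than in any list of the other lines. A further site, in an intron, was held by the 4 DPA pool, the 7 DPA pool and all non-hair lists, at between 43.3 and 75.9, and was missing from 4 DPA replicate 1.

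The GL2-line plants carry the GL2 promoter in the transgene as well, and reads of the copies cannot be told apart in these lists. The promoters of the other lines were also high in their own line. ADF8, an actin-binding protein gene whose promoter drove NTF in the hair line, had a site within 400 bp upstream of its TSS (chromosome 4, 280841 to 281130) at 99.9 in both hair lists. It stood at 28.2, 36.4 and 25.5 in the seed coat, at 69.4, 67.9, 64.3 and 58.6 in non-hair cells and at 61.2 and 68.7 in whole roots. The UBQ10 site in its 5-prime UTR (chromosome 4, 2717861 to 2718130) was at 98.4 and 91.6 in whole root lists, whose line carries UBQ10:NTF, and an intergenic one (2717421 to 2717610) at 99.8 and 99.4. In the GL2 line those sites reached between 67.8 and 88.2 (intergenic) and between 77.8 and 98.6 (5-prime UTR) in the lists that held them. The ACT2 promoter is in all lines, and its site (chromosome 3, 6474381 to 6474810) stood at 94.6, 92.0 and 85.6 in the seed coat and at 99.9 in each non-hair list. How much of these ranks comes from the transgene was not tested. None of the 4 promoter genes had a separating site, while without non-hair replicate 1 there were 2 with a non-hair-only site, and without 4 DPA replicate 1 there was 1.

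**Figure D3:**
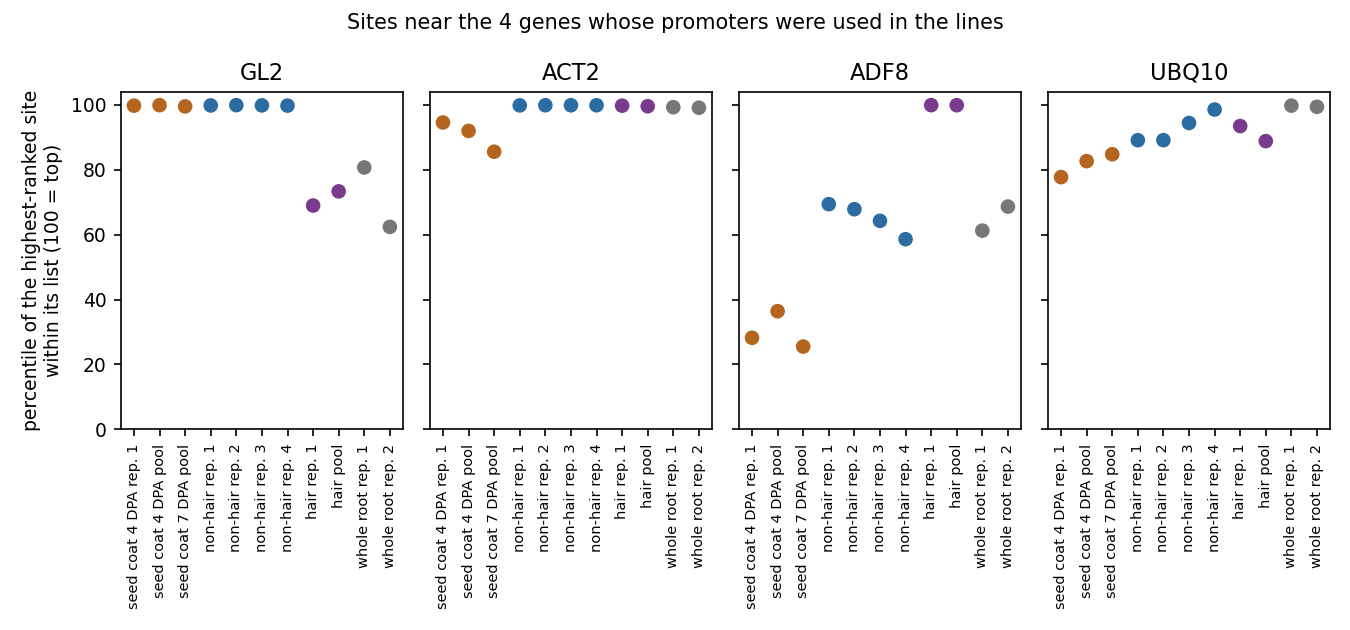
Percentile within its list (vertical axis, 100 is the top) of the highest-ranked site near each of the 4 genes whose promoters were used in the lines, for the 3 seed coat, 4 non-hair, 2 hair and 2 whole root lists (horizontal axis). GL2 is at 99.6 or above in all 7 GL2-line lists and at 62.4 to 80.7 elsewhere, and ADF8 is at 99.9 in the hair lists only.

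Genes around GL2 in the epidermal pathway had separating sites of both kinds. Of 20 genes, 19 had a site, 5 of them a seed coat-only site and 5 a non-hair-only site (TRY had both), or 26.3% each. Of all 20697 genes with a site, 15.2% had a seed coat-only and 15.1% a non-hair-only site. Counted by site, the 63 sites of the pathway include 9 (14.3%) of the seed coat-only and 5 (7.94%) of the non-hair-only kind, beside 8.02% and 8.35% of all sites, so the non-hair share is near that background. With the TSS required within 2 kb, 3 members had a non-hair-only site. Over all genes the shares without the 7 DPA pool were 22.4% and 17.5%, and counts of the lists below without that pool stand beside these. Among the bHLH genes, all separating sites were seed coat-only. TT8 (AT4G09820), the bHLH regulator of seed pigment, had 3 sites and no peak in any root list. The one closest to its TSS (chromosome 4, 6181781 to 6181970, upstream) stood at 14.6 and 46.2 in the 4 DPA lists and 73.2 in the 7 DPA pool. EGL3 (AT1G63650) had 5 sites, all without a root peak, of which the one in its 5-prime UTR (chromosome 1, 23599401 to 23599550) was held by all seed coat lists, at 79.4, 87.2 and 83.2. GL3 (AT5G41315), which acts redundantly with EGL3, had a seed coat-only site at 33.8, 25.0 and 12.7 and a site in all 7 lists (chromosome 5, 16526621 to 16526870) at 51.0, 70.2 and 62.4 in the seed coat and 6.59, 11.5, 16.0 and 10.8 in non-hair cells. The groups do not overlap at this common site. MYC1, a related bHLH gene, had a single peak, in the 7 DPA pool (2.66).

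The single-repeat MYB genes, whose proteins compete with the activating MYB, went different ways. ETC3 (AT4G01060) had 3 seed coat-only sites, with the intergenic one (chromosome 4, 459481 to 459710) at 99.1, 99.0 and 98.4 and the upstream one (460181 to 460450) at 81.9, 89.0 and 75.3. Its remaining site was in all 7 lists. ETC1 (AT1G01380) had instead a non-hair-only site within 400 bp upstream of its TSS (chromosome 1, 146821 to 146990), at 87.1, 82.4, 76.5 and 67.1. TRY (AT5G53200) had a seed coat-only intron site (chromosome 5, 21583481 to 21583670) at 58.1, 80.3 and 41.6. Its non-hair-only site lay 3188 bp from the TSS (21579341 to 21579510) at 81.2, 87.6, 89.9 and 78.2, and the hair lists held it at 84.5 and 71.7. CPC (AT2G46410), which in the root moves from non-hair to hair cells, had no separating site, and its strongest site (chromosome 2, 19051681 to 19052130) was between 95.3 and 99.0 in all 7 lists. ETC2 had no site.

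Of the MYB activators, MYB23 (AT5G40330) had a non-hair-only intergenic site (chromosome 5, 16130201 to 16130390) at 60.6, 59.2, 74.6 and 28.4. MYB5 (AT3G13540), which acts with TT2 and TT8 in the seed coat, had a site within 400 bp upstream of its TSS (chromosome 3, 4419541 to 4419850) in the 3 seed coat lists, at 64.5, 64.9 and 79.1, and in non-hair replicates 3 and 4, at 8.77 and 15.5. WER, the MYB factor that switches on GL2 in the root, had 6 sites, none separating and none in all 7 lists, and GL1, its counterpart in trichomes, had 1 low-ranked site in the 4 DPA lists. TTG1 had its upstream site in all 7 lists, between 33.1 and 79.6. ZFP5, a zinc finger gene that acts upstream of CPC in root hairs, had a non-hair-only site at 65.8, 63.4, 58.8 and 47.0, and JKD, a zinc finger gene that patterns the epidermis from the cortex, one at 31.1, 14.9, 33.3 and 9.15. TTG2 (WRKY44), a target of the complex, and SCM, the receptor-like kinase that positions the cell types, had no separating site, and HDG11 had 2 sites, 1 held by the 4 DPA pool and 1 by the 7 DPA pool.

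Ranked by mean percentile over the 3 lists, the first seed coat-only sites were near these genes. The highest mean percentile was that of the BRC1 site (AT3G18550, chromosome 3, 6380801 to 6380950, intergenic), at 99.7, 99.96 and 99.7. BRC1 is a TCP factor known for holding back axillary buds. NTMC2T2.1 (AT1G05500, chromosome 1, 1624161 to 1624310) had 99.3, 99.97 and 99.8, and the homeodomain gene BLH2 (AT4G36870, chromosome 4, 17367461 to 17367630) 99.4, 99.7 and 99.7. AT3G61950, AT1G75580, CER5, bZIP70 and SOC1, a MADS gene of flowering time, completed the first 8, all at 98.3 or above in each seed coat list. The BRC1 site was in no root list of any kind, and neither were those of NTMC2T2.1, AT3G61950, AT1G75580 and bZIP70.

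The non-hair-only sites were led by AT5G45500 (chromosome 5, 18437741 to 18437890), with 99.7, 99.8, 99.8 and 97.7 in replicates 1 to 4, AT1G53620 (chromosome 1, 20012581 to 20012830), with 99.5, 99.5, 99.4 and 98.3, and the polyol transporter gene PMT5 (AT3G18830, chromosome 3, 6492681 to 6492850), with 99.8, 99.7, 99.7 and 97.1. The next were AT2G44010, AT1G29020, AT1G51860, AT2G33710 and PP2-A8. Replicate 4 was the lowest of the 4 lists at 7 of these 8 sites, the exception being AT1G29020. All 8 were held by both hair lists except that of AT2G33710, which hair replicate 1 lacked, and all by both whole root lists. As a whole the non-hair-only sites had median percentiles of 59.5, 60.1, 56.9 and 51.2 in replicates 1 to 4, and the seed coat-only sites 49.8, 53.5 and 46.8. As a non-hair-only site needs a peak in 4 lists, while 3 suffice for a seed coat-only one, these medians are not on equal terms.

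Cuticle and wax genes had more seed coat-only than non-hair-only sites. The cuticle is the layer of cutin and wax that seals the surface of shoots and seeds. Of 36 cuticle and wax genes with a site, 23 (63.9%) had a seed coat-only and 3 (8.33%) a non-hair-only site, beside the 15.2% and 15.1% of all genes. Without non-hair replicate 1 the non-hair-only count was 7 (19.4%, beside 16.8% of all genes), and without the 7 DPA pool it was 5 (14.3%). Of the 136 sites near these genes, seed coat-only ones numbered 34 (25.0%) and non-hair-only ones 4 (2.94%). Counted by list, 33, 32 and 29 of all 37 members had a peak within 1 kb of the TSS in the seed coat and 9, 11, 11 and 14 in non-hair cells, while over all 27444 genes the number was between 16708 and 18208 in the seed coat and between 15649 and 17890 in non-hair cells. The hair and whole root lists had between 10 and 15. The seed coat and non-hair lists do not overlap, and every seed coat list has more than any root list.

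CER5 (ABCG12, AT1G51500), a transporter that exports wax, had its seed coat-only site at chromosome 1, 19101681 to 19101950, 551 bp from the TSS, at 98.7, 99.8 and 99.6, and the nearest non-hair peak was 2910 bp away. MYB94 (AT3G47600), an activator of wax synthesis, had one at chromosome 3, 17542261 to 17542410, at 98.2, 99.4 and 97.3. A lower-ranked non-hair-only site of MYB94 lay 190 bp from it, at 17.4, 36.9, 16.0 and 49.8. ABCG11 (AT1G17840), the partner of CER5 in lipid export, had the upstream site with both L1 boxes printed above, 36 bp from the TSS (chromosome 1, 6142261 to 6142470), at 89.1, 93.3 and 89.7. LTPG2, a lipid transfer protein gene, had 90.9, 92.7 and 85.9. Of the 34 seed coat-only sites of the list, 3 held an L1 box (8.82%), while the share was 4.32% over every seed coat-only site and 2.46% over all sites. The non-hair-only members were MYB94, MYB96, a wax regulator under drought, and DCR.

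The homeodomain families KNAT and BLH, whose proteins pair with each other and pattern shoots, ovules and fruits, also had more seed coat-only sites. Of 16 genes, all with a site, 10 (62.5%) had a seed coat-only and 2 (12.5%) a non-hair-only site, beside 15.2% and 15.1% of all genes. Of their 83 sites, 13.3% and 2.41% were of these kinds, beside 8.02% and 8.35% of all sites. With the TSS required within 2 kb, 7 of 15 members had a seed coat-only and 1 a non-hair-only site. The non-hair-only count was 4 without the 7 DPA pool, without non-hair replicate 1 and without non-hair replicate 4. BLH2, which with BLH4 modifies the pectin of seed mucilage, led with the site given above. BLH8 stood at 92.7, 97.6 and 99.1, KNAT3 at 87.7, 98.4 and 99.3, and BLH11 at 98.0, 98.4 and 87.4. The BLH2 gene also had a non-hair-only site in an intron (chromosome 4, 17370921 to 17371150), at 92.3, 97.1, 96.2 and 90.5, with a seed coat peak 10 bp away. Close to the TSS the groups overlapped, as the number of the 16 genes with a peak within 1 kb of the TSS was 12, 12 and 13 in the seed coat and 12, 10, 10 and 11 in non-hair cells.

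The seed coat grows from the integuments of the ovule. Among 40 genes of ovule and integument development with a site, 20 had a seed coat-only and 6 a non-hair-only one, beside 15.2% and 15.1% of all genes, so the non-hair count is at the background. Without the 7 DPA pool the counts were 25 and 10. The MADS factor gene STK (AT4G09960), an ovule identity gene, had a seed coat-only site at chromosome 4, 6242501 to 6242790, at 94.0, 98.2 and 97.1. BEL1, which gives integument identity, stood at 92.7, 96.9 and 87.1, SHP2 at 88.1, 93.4 and 95.1, and the protein kinase gene UCN, which holds integument growth in check, at 88.8, 98.3 and 88.2. BEL1 also had a non-hair-only site, within 400 bp upstream of its TSS (chromosome 5, 16579441 to 16579690), at 92.8, 93.3, 88.2 and 90.04, and with a seed coat peak 90 bp away. With the TSS required within 2 kb, 12 members of the list had a seed coat-only site. The next lists share members with that one, such as STK and SHP2 (floral) and REV and KAN1 (polarity), so the counts are not independent. Floral organ identity genes had 17 of 26 (65.4%) against 4 (15.4%), and 23.8% against 7.62% of their sites. Polarity and boundary genes had 12 of 25 (48.0%) against 6 (24.0%), and 16.1% against 10.8% of their sites. With the TSS within 2 kb the polarity and boundary counts were 7 against 3. Seed coat-only sites of that list include those of the HD-ZIP III gene REV (81.4, 84.9 and 91.4) and KAN3 (89.1, 84.4 and 92.4).

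Genes of the labelled and the neighbouring cells of the silique were counted as a check of the capture. Over all 27444 genes, the number with a peak within 1 kb of the TSS was between 16708 and 18208 in the seed coat. In non-hair cells it was between 15649 and 17890. Mucilage and seed coat epidermis genes had such a peak in 32, 32 and 33 of 34 members in the seed coat, and in 25, 27, 28 and 30 in non-hair cells. Hair lists had 29 and 29 and whole root lists 32 and 31, so these counts did not set the seed coat apart from the whole root. Seed coat-only sites were found at 14 (41.2%) and non-hair-only sites at 8 (23.5%) of 34, beside 15.2% and 15.1% of all genes. Both kinds were found at 5 (14.7%), against 2.25% of all genes. By site, their 166 sites include 22 (13.3%) of the seed coat-only and 8 (4.82%) of the non-hair-only kind, the latter below the 8.35% of all sites, and with the TSS within 2 kb the members were 12 and 3. After BLH2, MYB61, a regulator of mucilage, ranked highest with 96.5, 97.8 and 99.2, followed by AP2 (92.9, 98.9 and 99.1) and the xylosidase gene BXL1 (99.2, 99.8 and 90.5), whose site lies 10 bp from a non-hair peak. Proanthocyanidin genes, of the inner layer, had a peak within 1 kb in 15, 15 and 16 of 17 members in the seed coat. Non-hair lists had 9, 8, 10 and 9, hair lists 8 and 9, and whole root lists 8 and 8. Of 14 with a site, 7 had a seed coat-only and 0 a non-hair-only site. With the top peaks of each list, as many as 50% of the shortest list, these were 3 (23.1%) and 1 (7.69%) of 13. The shares of all genes under that setting are not given here, so these 2 shares have no background beside them. TT7, the flavonoid 3-prime hydroxylase gene, had 98.8, 99.0 and 98.2.

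Markers of the silique wall had a peak within 1 kb in 8, 7 and 8 of 12 members in the seed coat and in 3, 2, 2 and 6 in non-hair cells. Hair lists had 2 and 2 and whole root lists 7 and 3, so whole root replicate 1 was level with the 4 DPA pool. For embryo and storage genes the numbers were 8, 7 and 10 of 19 and 5, 6, 7 and 8, and for endosperm genes 4, 5 and 4 of 11 and 2, 4, 3 and 4, so that these 2 lists overlapped between the groups. Photosynthesis genes had 42, 41 and 42 of 46 in the seed coat and 29, 26, 27 and 28 in non-hair cells. Hair lists had 24 and 22 and whole root lists 26 and 24. What part cells other than the outer seed coat play in the seed coat-only sites was not tested, and fewer cells of a type cannot be told apart from weaker accessibility in each.

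Root mineral uptake genes leaned the other way. Of 44 members with a site, 27 (61.4%) had a non-hair-only and 6 (13.6%) a seed coat-only site, beside 15.1% and 15.2% of all genes. The seed coat share is near that background. Of their 181 sites, 48 (26.5%) against 6 (3.31%) were of these kinds, beside 8.35% and 8.02% of all sites. A peak within 1 kb of the TSS was found at 35, 35, 36 and 33 of 45 members in non-hair cells and at 17, 14 and 15 in the seed coat. Hair lists had 37 and 36 and whole root lists 33 and 33, so that all root lists lay above all seed coat lists. PHT1;1 (AT5G43350), the phosphate transporter, led with an intergenic site 718 bp from the TSS (chromosome 5, 17402741 to 17403010) at 98.6, 99.4, 98.3 and 89.3, and no seed coat peak within 4850 bp.

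The sulphate transporter gene SULTR1;2 (AT1G78000) had an intron site (chromosome 1, 29328621 to 29328830) at 96.9, 95.6, 98.2 and 93.1. The zinc transporter gene ZIP2 stood at 98.3, 96.8, 98.2 and 86.1, and the nitrate transporter and sensor gene NRT1.1 at 98.0, 97.5, 96.2 and 87.1 (chromosome 1, 4102501 to 4102830). Non-hair replicate 4 was again the lowest at all 4 sites. The W-box was in 27 of the 48 non-hair-only sites of the list (56.2%) and in 10 of its 29 sites common to all lists (34.5%). On the seed coat side, NPF4.6, a nitrate and abscisic acid transporter gene, had the highest-ranked site, at 81.4, 88.3 and 69.1.

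WRKY genes, a family of factors of defence and stress, also had more non-hair-only sites. Of 65 with a site, 33 (50.8%) had a non-hair-only and 5 (7.69%) a seed coat-only site, beside 15.1% and 15.2% of all genes, and 62 of their 245 sites (25.3%) were non-hair-only. Without the 7 DPA pool 9 (13.8%) had a seed coat-only site. A peak within 1 kb of the TSS was found at 54, 54, 54 and 55 of 67 members in non-hair cells and at 33, 36 and 33 in the seed coat, with between 50 and 54 in hair and whole root lists. The leading sites were those of WRKY72 (AT5G15130, chromosome 5, 4903021 to 4903230) at 97.3, 99.1, 98.0 and 95.3, WRKY29 at 98.2, 99.2, 97.6 and 91.9, WRKY31 at 95.8, 97.7, 97.3 and 91.9, and WRKY26 at 97.7, 94.8, 93.7 and 93.4. On the seed coat side WRKY54 led, at 86.3, 83.7 and 75.3. W-boxes were in 37.1% of the 62 non-hair-only sites of the family, beside 45.9% of all non-hair-only sites. Of its 54 common sites 44.4% held one, beside 23.3% of all common sites.

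Immune and jasmonate genes had 15 of 53 members (28.3%) with a non-hair-only and 8 (15.1%) with a seed coat-only site, the latter share close to the 15.2% of all genes. Of their 196 sites, 23 (11.7%) were non-hair-only and 10 (5.10%) seed coat-only, beside 8.35% and 8.02% of all sites. Without the 7 DPA pool the counts were 16 (30.2%) and 13 (24.5%), which are nearer to each other. JAZ1, a repressor of jasmonate signalling, had the non-hair-only site printed above (chromosome 1, 6621241 to 6621430) at 96.1, 99.1, 98.8 and 93.9, beside a site in all 7 lists. NHL10, a gene induced by defence, stood at 94.5, 91.4, 91.4 and 81.6. ERF5 and JAZ3 had sites of both kinds, those of ERF5 30 bp apart, so that there the call rests on where peaks of 150 bp begin and end. Of 30 root hair genes with a site, 15 had a non-hair-only and 3 a seed coat-only site, beside 15.1% and 15.2% of all genes, and without the 7 DPA pool 15 and 6. The leading non-hair-only sites were high in the hair lists too. That of the receptor kinase gene MRH1 had 94.8, 98.8, 99.8 and 96.8 in non-hair and 98.6 and 98.5 in hair lists. RSL3, a bHLH regulator of hair growth, had 87.8, 91.4, 89.1 and 87.1 in non-hair and 95.3 and 87.6 in hair lists.

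Suberin is the lipid polymer of the root endodermis and of the mature seed coat, and its genes had both kinds of site in different members. A non-hair-only site was found in 7 of 23 (30.4%) and a seed coat-only site in 4 (17.4%). Of all genes, 15.1% had a non-hair-only and 15.2% a seed coat-only site, so the suberin seed coat share is near that background. Of the 69 sites of the suberin genes, 15.9% were non-hair-only and 5.80% seed coat-only, beside 8.35% and 8.02% of all sites. These all-gene shares also stand beside the other lists of this paragraph. MYB9 and MYB107, regulators of suberin known from the seed coat, had non-hair-only sites, MYB9 at 87.8, 88.2, 92.0 and 57.5 and MYB107 at 70.9, 71.7, 79.9 and 64.0. The exporter gene ABCG6 (57.2, 71.9 and 75.9) and the reductase genes FAR1 (53.2, 73.6 and 61.4) and FAR5 (54.2, 56.2 and 56.7) had seed coat-only sites. Of the HD-ZIP IV genes, the family of GL2, 4 of 13 (30.8%) had a seed coat-only site (ATML1, HDG1, HDG2 and PDF2) and 1 (7.69%), HDG3, a non-hair-only site, which became 2 without non-hair replicate 1. The ATML1 site, in the 5-prime UTR of this epidermal identity gene, stood at 16.0 and 68.9 in the 4 DPA lists and 95.9 in the 7 DPA pool. Flowering-time genes had 9 (26.5%) and 7 (20.6%) of 34, inner root tissue genes 7 (23.3%) and 8 (26.7%) of 30, and xyloglucan hydrolase (XTH) genes 7 and 7 of 25. By site the shares were 8.66% and 9.45%, 10.6% and 8.51%, and 10.0% and 8.75% in that order, beside 8.02% and 8.35% of all sites. Counted so, the flowering-time genes are near the background. Without the 7 DPA pool the seed coat-only counts of these 3 lists were 16 (47.1%), 11 (37.9%) and 11, over 1.5 times as many, while the non-hair-only counts were 7, 8 and 7. Of 11 constitutive genes none had a separating site, but 2 had a non-hair-only one without non-hair replicate 1, and 1 without 4 DPA replicate 1 or the 7 DPA pool. In the 7 lists, 59.3% of their sites were in all 7 lists, against 26.3% of all sites. With 10 members, root meristem and cap genes had 5 with a seed coat-only and 1 with a non-hair-only site, the latter being 2 without the 4 DPA pool and the counts 2 and 0 with the TSS within 2 kb. The root stem cell regulator PLT1 had both kinds, and PLT2 a seed coat-only site.

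**Figure D4:**
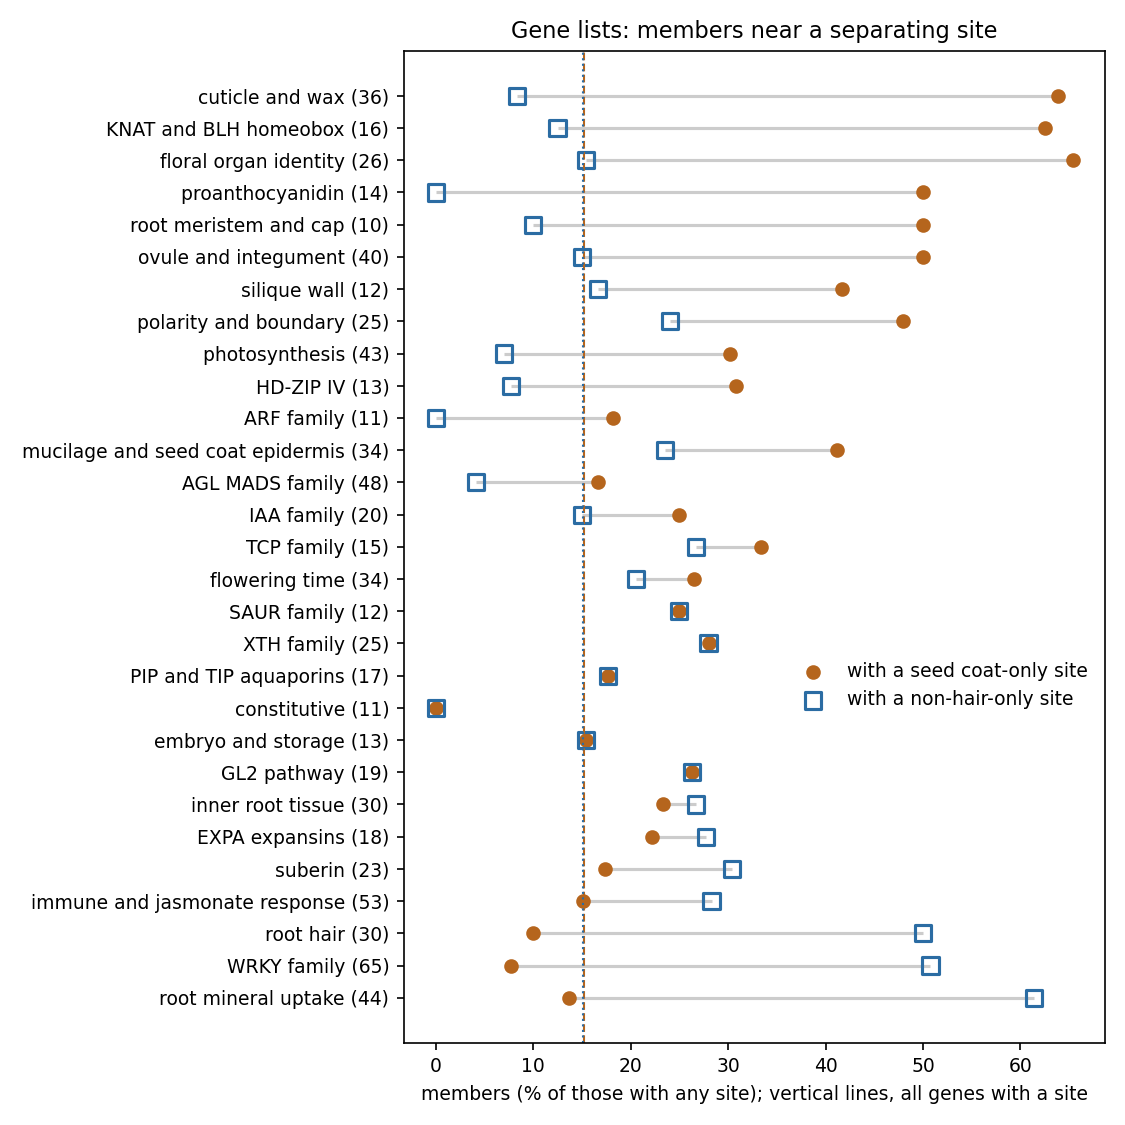
Share of the members of each gene list (vertical axis, number with a site in brackets, lists of at least 10) that have a seed coat-only site (filled circles) or a non-hair-only site (open squares), in percent of members with any site. Dashed and dotted lines mark the 15.2% and 15.1% of all genes, and cuticle and wax (63.9% and 8.33%) and root mineral uptake (13.6% and 61.4%) lie at opposite ends.

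Some genes held runs of separating sites. MRN1 (AT5G42600), the marneral synthase gene, had 8 non-hair-only sites among 17 (chromosome 5, 17044121 to 17055710), and its neighbour CYP71A16 (AT5G42590), the marneral oxidase gene, had 6 among 15 (17033801 to 17043230). These adjacent genes belong to a known cluster for a triterpene of the root. None of their 32 sites was in all 7 lists, and the highest by mean, nearest to CYP71A16 and starting at 17043061, had 87.1, 88.9, 97.1 and 92.2. The highest nearest to MRN1, starting at 17044741, had 95.3, 97.1, 97.0 and 74.3. AT1G21010, AT2G39210 and AT4G29930 had 6 non-hair-only sites each. On the seed coat side, the gibberellin synthesis gene GA20OX2 (AT5G51810) had 6 seed coat-only sites among 10 (chromosome 5, 21053541 to 21061770), up to 98.3, 96.7 and 94.0. AT5G35405 had 6, and SFP2, a sugar transporter-like gene, SAG29 (SWEET15), a sucrose exporter gene that acts in seed filling, and RD22, a dehydration-response gene, had 5 each. The RD22 sites ranked low in the 7 DPA pool, where they stood between 1.54 and 52.8, with the strongest at 98.9 and 99.7 in the 4 DPA lists and 43.4 in that pool.

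Among the 12440 sites common to all 7 lists, the order differed for some. At 452 sites (3.63%) every seed coat percentile was at least 25 points above every non-hair percentile, and at 447 (3.59%) the reverse held. The largest gap in mean percentile toward the seed coat was that of AT2G05810 (chromosome 2, 2217021 to 2217250), with 87.4, 91.4 and 94.2 in the seed coat and 13.1, 1.26, 0.265 and 9.15 in non-hair cells. CYP714A1, a gibberellin-inactivating P450 gene, had 88.1, 99.0 and 99.3 against 27.1, 14.9, 0.128 and 1.87, and the nitrate transporter gene NRT1.7, known from phloem loading, 92.3, 92.7 and 93.0 against 13.1, 9.81, 14.3 and 4.18. NHL1 and AT4G36520 followed. Toward the non-hair cells, the metalloproteinase gene MMP (AT1G70170, chromosome 1, 26422581 to 26422850) had 16.0, 4.998 and 8.01 in the seed coat and 99.0, 96.7, 98.7 and 95.1 in non-hair cells. SHB1 (11.5, 2.57 and 14.8 against 96.5, 99.0, 96.4 and 96.1), AT3G46700, the NAC factor gene ATAF2 and the signal peptide gene CLE17 followed. Differences of this size mean that a peak near the foot of one group's lists is near the head of the other's.

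The share of peaks with a W-box was 18.7%, 18.1% and 18.5% in the seed coat lists and 28.3%, 28.6%, 27.8% and 28.1% in the non-hair lists. Hair lists had 28.1% and 27.4% and whole root lists 25.3% and 24.3%, so every root list was above every seed coat list. The difference of -9.80 percentage points, seed coat minus non-hair, is many times the spread within groups (exact permutation, two-sided, p = 0.0571, the smallest possible, adjusted p = 0.114 over 18 motifs), and with 35 labellings no motif could pass 0.05. By site, 45.9% of those non-hair-only held the W-box, 12.1% of those seed coat-only, 23.3% of the common ones and 23.6% of all. At least 2 W-boxes were found in 0.737% of seed coat-only sites, 11.5% of non-hair-only sites and 4.21% of all sites.

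Of the 18 motifs, 9 did not overlap between the groups, 6 being more frequent in the seed coat lists and 3 in the non-hair lists. The CArG box was in 2.46%, 2.503% and 2.55% of seed coat peaks and in 1.52%, 1.66%, 1.71% and 1.77% of non-hair peaks, and in 3.71% of seed coat-only and 0.733% of non-hair-only sites. The L1 box was in 2.26%, 2.704% and 2.71% of seed coat and 2.13%, 2.05%, 1.87% and 1.83% of non-hair peaks, although GL2 itself marks both cell types. Hair lists had 2.22% and 2.28% and whole root lists 2.19% and 2.49%. They overlap the seed coat lists and lie above every non-hair list. The auxin response element (TGTCTC, 9.45% against 8.16% on average), the AC element (4.099% against 3.43%), the GA repeat (GAGAGAGA, 4.58% against 3.67%) and the telo box (AAACCCTA, 1.99% against 1.65%) were also more frequent in the seed coat, and the HD-ZIP palindrome (CAATNATTG, 0.716% against 0.875%) and NAC core (ACACGCAA or TTGCGTGT, 0.413% against 0.554%) less frequent. Both strands were searched. Each of these 9 had the same p as the W-box. The site II element of TCP factors (TGGGCC or TGGGCT) marked the common sites, with 39.3% of them against 10.3% of seed coat-only and 3.99% of non-hair-only sites. It overlapped between the groups, at 27.8%, 28.1% and 26.3% of seed coat and 21.3%, 25.5%, 23.7% and 26.6% of non-hair peaks.

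**Figure D5:**
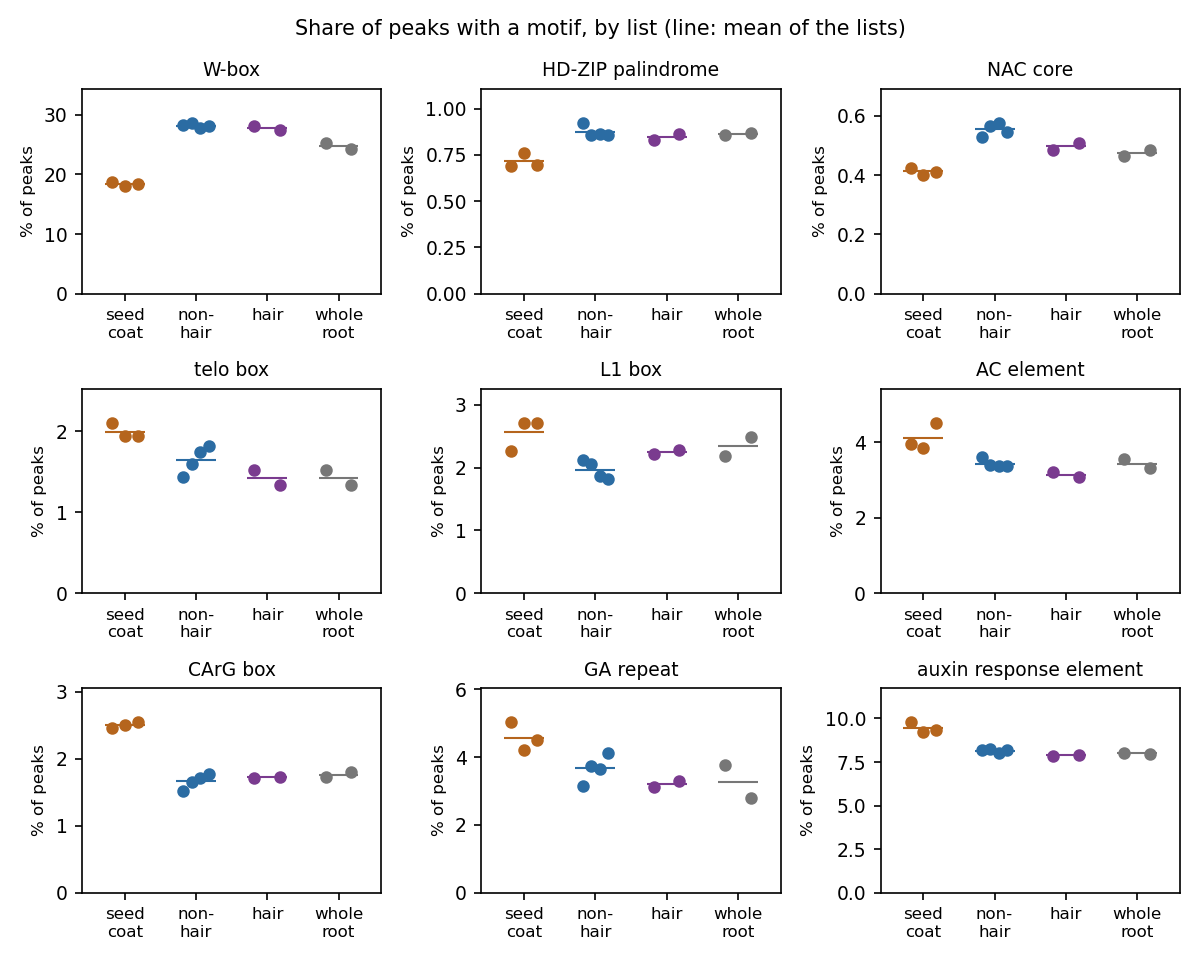
Share of peaks with a motif in their 150 bp (vertical axes, percent, from 0) for the 9 motifs that do not overlap between seed coat and non-hair lists. Points are lists and lines are means of the lists; W-box shares are 18.1% to 18.7% in the seed coat and 24.3% to 28.6% in the root lists.

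What the GL2-line cell types share beyond the hair lists was small. Of the 12440 sites in all 7 lists, 379 (3.05%) were in no hair list, and 148 of these (1.19% of the 12440) in no whole root list either. For the non-hair-only sites these shares were 3.31% and 1.74%. The hair lists thus lacked a similar share of the sites of non-hair cells whether all seed coat lists or none held them. Whole roots include non-hair cells, so a whole root peak need not come from other cells of the root. The 148 are therefore no count of what the rest of the root lacks. A hair peak lay within 100 bp of 53 of the 379 (14.0%), which leaves 326 without one. These 379 sites ranked low, with medians of 54.2, 41.7 and 41.6 in the seed coat lists and 31.1, 16.5, 28.4 and 35.03 in the non-hair lists, against 69.3, 65.6 and 64.5 and 59.5, 60.9, 62.5 and 68.0 for all common sites. They are thus closer to the foot of the lists. Whether hair cells have weaker signal there was not tested.

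The top sites of the 326 were few exceptions. AT2G44660 had an upstream site (chromosome 2, 18423041 to 18423210) at 99.7, 99.6 and 99.0 in the seed coat and 99.6, 98.6, 99.2 and 99.3 in non-hair cells, and 93.7 and 90.8 in the whole root. A second JAZ1 site, 781 bp from the TSS (chromosome 1, 6620821 to 6621170), had 97.0, 95.7 and 88.9 and 97.9, 96.9, 99.1 and 99.4. AT5G03220, GBF1, a G-box-binding factor gene, and AT1G29660 followed. These were chosen after their values were seen. The G-box (CACGTG) was in 17.2% of the 379 sites, 13.2% of all common sites and 7.78% of all sites. In the same order the W-box was in 18.2%, 23.3% and 23.6%, and the site II element in 14.2%, 39.3% and 19.8%. The GL2 sites described above are not among them, since the hair lists held those too, at lower ranks.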

How the data were processed

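DNase I peak lists were compared between seed coat cells (3 lists, of which 2 pool libraries) and root non-hair cells (4 lists). Bowtie 0.12.7 and the build TAIR10 are named, per the submitters' processing notes, with no role. Peak caller and threshold: not given in the sources used here. The authors deposited peaks of 150 bp, each with a score that is a whole number and was used only to rank peaks within a list. The mark 6.8M is read as a common number of reads, which no label states. The titles of 4 DPA replicates 1 and 2 give one library name, and their full-depth lists hold identical lines, so they count once.

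Peaks on the 5 nuclear chromosomes were merged into sites (gap 0 bp) and overlap needed 1 bp. Coordinates, counted from 1, and sequence are from the TAIR10.1 reference, whose nuclear chromosome lengths no peak exceeds; 27444 protein-coding genes gave the TSS. A site's class was, in order, within 400 bp upstream of a TSS, 5-prime UTR, coding exon, intron, 3-prime UTR or intergenic. Motifs were searched in the central 150 bp. Tests were exact permutations over lists and Fisher's exact test per site, with Benjamini-Hochberg adjustment, and were tested on simulated data. Python 3.11.15 was used with numpy 2.4.6, pandas 2.3.3, scipy 1.17.1 and matplotlib 3.10.9.

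Members and lists (31 gene lists with 800 matched genes, 11 names unmatched, and 18 motifs) were chosen with earlier results of these data known. Some genes are in several lists, such as BLH2 in the KNAT and BLH list and the mucilage list. Named genes were, per gene list and direction, at most 4 members with a separating site by mean percentile; the 8 highest separating sites per direction with no peak of the other group within 100 bp; the 5 largest rank gaps; the 5 genes with most separating sites; and the GL2 pathway and promoter genes in full. Alternatives were leaving out each list, equal numbers of peaks, the top 50% of peaks, merging at 100 bp, presence by peak centre, the 6.65M lists, no pooled list, a full-depth 7 DPA list, other rank gaps, a 100 bp motif window and other gene assignments.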

Additional observations from a re-analysis of the deposited data

Results flagged for a closer look

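In 9 of 48 groups of 4 non-hair values checked, the highest or lowest library lay far from the other 3, measured as its gap to the nearest over the range of the group. A chance rate of about 1 in 20 would need independent values, while all 48 groups come from the same 4 libraries. Some are percentiles of sites that were named for their ranks, so no excess over chance can be read from the 9. In replicate 1, 3.61% of peaks held the AC element, 0.921% the HD-ZIP palindrome, and 5.04% lay in introns, each the highest of the 4. Replicate 4 had the lowest share with the RY repeat, 0.553%. Replicate 4 was also the lowest at 4 of the leading non-hair-only sites, those of AT5G45500 (97.7), AT1G53620 (98.3), PMT5 (97.1) and AT1G51860 (97.4). Replicate 2 was the highest at the SHB1 site, at 99.0. Replicate 4 also overlapped the seed coat lists most, as given above. The part of these libraries in the results was not tested beyond leaving each out.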

How the results depend on the processing

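No paired analysis was possible because the labels give the groups no shared replicate numbers. Leaving out each list in turn gave 3933 to 5978 seed coat-only sites (5978 without the 7 DPA pool), 4200 to 4608 non-hair-only sites, and 458 to 878 common sites ranked higher in non-hair cells (878 without the 7 DPA pool). The Jaccard difference ranged from 0.151 to 0.178, and its exact permutation p from 0.0667 to 0.1, the smallest that 6 lists can give. The difference in the share of peaks with a W-box ranged from -9.94 to -9.64 percentage points. With the top peaks of each list, as many as 50% of the shortest list, there were 2376 seed coat-only sites, 4028 common sites, 89 and 95 rank gaps toward the seed coat and the non-hair cells, and 203 common sites in no hair list. With no pooled list there were 8442 seed coat-only sites and 952 and 1351 rank gaps, and the Jaccard difference was 0.147 (exact permutation p = 0.2, with 1 seed coat list left). With the full-depth list of 7 DPA replicate 1, which is shorter, there were 1710 seed coat-only sites, 227 and 160 rank gaps and 166 common sites in no hair list, and the difference in the share of peaks upstream of a TSS turned to 0.464 percentage points (the cause was not tested). A gap of 10 points gave 1228 and 1003 sites and one of 50 points 72 and 108. With whole root lists counted beside the hair lists, 148 common sites were left. Of 640 gene list counts under alternatives, 556 were within 1.5 times the reported count and 84 were not; those without each list and with the top 50% were chosen after seeing the data. The number of reads behind a list is not known, so a missing peak cannot be told apart from a weak one.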
